A study of Mus musculus with 30 samples.

Results

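Brain tumours given the epidermal growth factor receptor (EGFR) variant R222C, in which cysteine replaces an arginine of the extracellular part, were compared with tumours given mCherry, a fluorescent protein used as the control. All 3 R222C libraries and all 3 mCherry libraries were taken, 6 of the 30 libraries of the series, with every gene in the tables. Of the 24421 genes listed, 15824 had at least 1 RPM in at least 3 of the 30 libraries and were tested. RPM, the unit in which the tables are named, stands here for the deposited normalised counts divided by 1 constant for all libraries. The series profiled polyadenylated RNA from bulk cortical tumours of mice with glioblastoma, collected on postnatal day 70, to ask what EGFR variants change in this tumour. Both groups carried the same tissue, disease and age labels and differed in the label of the protein given. The labels give no strain, promoter or method of delivery, and do not say from which species the receptor was taken or which alterations the tumours of both groups shared. The design text speaks of 3 to 5 mice per variant, so each library was taken as 1 tumour of 1 mouse, which no label states. Values are given in the order of libraries 1, 2 and 3 of each group.

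EGFR is a receptor tyrosine kinase that, once bound by ligands such as TGF-alpha or EGF, pairs with itself or with ERBB2, ERBB3 or ERBB4 and signals through RAS and ERK, PI3K and AKT, and STAT3. ERK signalling induces its own brakes, among them the Sprouty proteins and the dual-specificity phosphatases, and the ETS factors ETV4 and ETV5. In human glioblastoma EGFR is often amplified or altered in its extracellular part, and in the brain it drives glial precursors towards proliferation.

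The 6 libraries held 4013335 to 18178209 reads assigned to genes, and 1 read was worth 0.0549 to 0.241 RPM. R222C library 1 was the shallowest. The library numbers in the labels were 26, 31 and 32 for R222C and 3, 4 and a number above 37 for mCherry, so no run of neighbouring numbers held both groups, and the group cannot be told apart from whatever the numbers stand for. The ribosomal RNA gene Rn45s took 2.78% to 3.38% of the reads in R222C and 0.167% to 0.226% in mCherry. Markers fitted the tumour label. The 18 oligodendrocyte precursor genes averaged 7.56 to 7.91 on the log2(RPM + 1) scale in R222C and 6.59 to 7.40 in mCherry, against 5.38 to 5.43 in the 2 normal cortex libraries, and the 24 neuron genes 4.30 to 5.02, 4.88 to 6.87 and 8.92 to 8.96. In bulk tissue, fewer cells of a type and less RNA per cell cannot be told apart.

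Egfr itself (chromosome 11, 16752203 to 16918158, mm10) was measured at 98.4, 287 and 2790.0 RPM in the R222C tumours and 30.9, 22.1 and 35.4 RPM in the mCherry tumours. The species of the receptor given is not stated, and if it was human, the mouse gene counts only those of its reads that map across species, so these levels need not be the level of the variant. All 3 R222C tumours were above all 3 mCherry tumours, but the R222C tumours spanned a wide range, and library 3 had the most Egfr of all 28 tumours in the series. The log2 difference of log2(RPM + 1) was 3.85 ± 1.09 (SE), which did not pass in limma (adjusted p = 0.346) and passed in DESeq2 (adjusted p = 0.00154). The level in R222C libraries 1 and 2 lay within the 115 to 393 RPM of the wild-type EGFR tumours or just below. Without R222C library 3 the log2 difference was 2.5 (limma adjusted p = 0.728). In that library Egfr was 3.59 more, in log2 units, than the median over all tumours. Of the 4 expressed genes on each side of Egfr on chromosome 11, Grb10, an adaptor that restrains insulin receptor signalling, was 2.52 above its tumour median there, and the other seven, among them Sec61g at 0.08 and Plek at -0.07, lay between -0.31 and 0.08.

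Among the other receptors of the family, Erbb3, which lacks strong kinase activity and signals as a partner, was at 71.4, 173 and 85.9 RPM in the R222C tumours and 4.13, 97.8 and 15.6 RPM in the mCherry tumours. The 2 groups overlapped, because mCherry library 2 had more Erbb3 than R222C libraries 1 and 3. Erbb4, a neuregulin receptor, was at 6.51, 5.13 and 3.51 RPM in the R222C tumours and 15.4, 11 and 18.9 RPM in the mCherry tumours. Here all R222C tumours were below all mCherry tumours (log2 difference -1.41 ± 0.46, limma adjusted p = 0.466). Erbb2, the partner without a known ligand, was low in both groups, at 3.62, 12.3 and 9.71 RPM in the R222C tumours and 1.70, 14.8 and 3.09 RPM in the mCherry tumours.

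Of the ligands, Tgfa, which encodes the EGFR ligand TGF-alpha, was at 96, 209.6 and 154 RPM in the R222C tumours and 58, 25.8 and 42.5 RPM in the mCherry tumours. The R222C tumours were all higher than the mCherry tumours, by 1.84 ± 0.59 on the log2 scale (SE; limma adjusted p = 0.466, DESeq2 adjusted p = 0.0857), so the difference passed neither test. Hbegf, which encodes the ligand HB-EGF, was at 38.1, 37 and 36.9 RPM in the R222C tumours and 44, 110.0 and 40.3 RPM in the mCherry tumours. It was thus lower in every R222C tumour, by a small margin (log2 difference -0.62 ± 0.40, limma adjusted p = 0.853). Nrg3, a neuregulin and ligand of ERBB4, was at 2.65, 2.18 and 1.2 RPM in the R222C tumours and 12.4, 2.14 and 6.19 RPM in the mCherry tumours. Over the 9 ligand genes tested, 3 had a higher mean in R222C and the median log2 difference was -0.50.

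**Figure D1:**
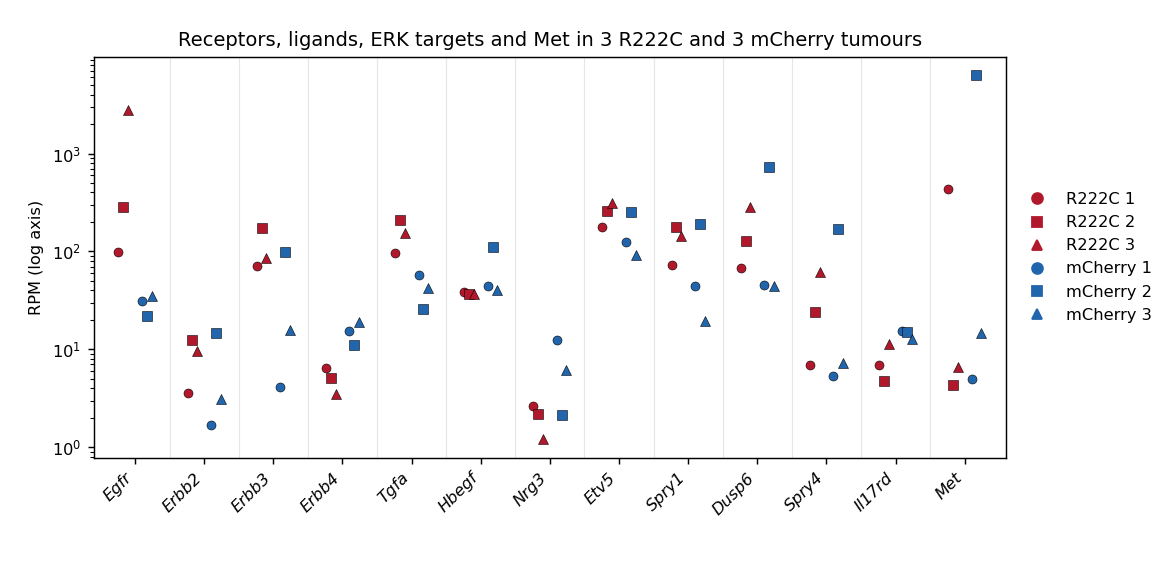
RPM on a log axis of the EGFR family receptors, 3 ligands, 5 ERK pathway genes and Met, 1 point per library, with R222C in red and mCherry in blue and the marker giving the library number. Egfr and Tgfa are higher and Erbb4, Hbegf and Il17rd are lower in every R222C library than in every mCherry library. The highest Dusp6, Spry4 and Met values are those of mCherry library 2.

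Of the 20 ERK targets and feedback genes, 1 was lower in R222C without overlap and 0 were higher, beside 6.69% and 5.49% of all genes, so the share was close to that of all genes or below it. In 11 of them the mean was higher in R222C, and the median log2 difference was 0.10. Dusp6, the phosphatase that removes phosphate from ERK, was at 68, 128 and 285 RPM in the R222C tumours and 45.6, 720.3 and 44.4 RPM in the mCherry tumours. Spry4, a Sprouty inhibitor of receptor signalling, was at 6.99, 24.3 and 61.8 RPM in the R222C tumours and 5.35, 169 and 7.29 RPM in the mCherry tumours. In both, mCherry library 2 was the highest of the 6 and R222C library 3 the next. The same held more widely, since mCherry library 2 was the highest of the 6 libraries for 14 of the 20 genes. Within the R222C group library 3, the one with the most Egfr, was the highest for 17 of the 20, and library 1, with the least Egfr, was the lowest for 17. This order was not particular to the ERK list. Among the R222C tumours library 3 was also the highest for 22 of 22 type I interferon genes and library 1 the lowest for 17. For mitosis genes, by contrast, library 1 was the highest for all 20. A link to the Egfr level was not tested.

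mCherry library 2 stood apart in Met, the receptor for hepatocyte growth factor. Met was at 437, 4.30 and 6.57 RPM in the R222C tumours and 4.98, 6283 and 14.6 RPM in the mCherry tumours, and R222C library 1 was the next highest of the 6. The part of this tumour's Met in these levels was not tested. Without mCherry library 2 the median of the ERK list was 1.2, with 16 of 20 means higher in R222C. Etv5, an ETS factor downstream of ERK, was at 179, 262 and 310.4 RPM in the R222C tumours and 126, 251 and 90.9 RPM in the mCherry tumours. Its lowest R222C value was above 2 of the mCherry libraries and below mCherry library 2 (log2 difference 0.77 ± 0.31, limma adjusted p = 0.607). Spry1 was at 72.8, 177 and 143 RPM in the R222C tumours and 44.5, 189.5 and 19.4 RPM in the mCherry tumours, with mCherry library 2 again the highest of the 6. Il17rd, a membrane inhibitor of growth factor signalling, was the member that separated the groups, at 6.99, 4.74 and 11.5 RPM in R222C and 15.3, 14.9 and 12.8 RPM in mCherry, lower in every R222C tumour (limma adjusted p = 0.788).

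The adaptors and attenuators of EGFR had 8 of 18 means higher in R222C and a median of -0.02, and 0 of the 18 were without overlap, beside 5.49% and 6.69% of all genes. The genes of PI3K, AKT and MTOR signalling had 11 of 21 higher and a median of 0.02. In that list Tsc1, part of the complex that restrains MTOR, was at 33.5, 32.5 and 40.4 RPM in the R222C tumours and 51, 45.2 and 47.8 RPM in the mCherry tumours. The STAT3 targets had 7 of 12 higher and a median of 0.13. Pdgfa, a ligand of the PDGF receptor that marks glial precursors, was at 56.2, 73.8 and 41.1 RPM in the R222C tumours and 21, 28.5 and 27.2 RPM in the mCherry tumours, again with all R222C tumours higher (log2 difference 1.10 ± 0.31, limma adjusted p = 0.339).

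Across all genes, limma on log2(RPM + 1) with Benjamini-Hochberg adjustment called 0 of 15824 genes (0.0%), and edgeR's quasi-likelihood test on the recovered reads called 0 as well (0.0%), with 1308 genes at an unadjusted p under 0.05. At an unadjusted p under 0.05 limma had 1124 genes (7.1%), 568 of them higher in R222C (3.59%) and 556 lower (3.51%). DESeq2's Wald test on the same reads called 95 of the 15779 genes to which it gave an adjusted p (0.602%), 59 higher (0.374%) and 36 lower (0.228%). The groups did not overlap in 868 genes that were higher in R222C (5.49%) and in 1058 that were lower (6.69%). The median log2 difference over all genes was -0.01, and 49.4% of the genes had a higher mean in R222C.

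The genes ranked highest in either direction were chosen by smallest p among those whose groups did not overlap and that reached a mean of 5 RPM in 1 group. None of these 16 passed limma or edgeR, and DESeq2 called all 16. The choice and the DESeq2 calls rest on the same reads, so the calls are not a separate test of these genes. Iapp, which encodes the islet peptide hormone amylin, was at 2.41, 8.26 and 12.2 RPM in the R222C tumours and 0, 0.274 and 0.0687 RPM in the mCherry tumours. It was nearly unread in mCherry, with 0, 5 and 1 reads, and the R222C values rested on 10, 148 and 132 reads (log2 difference 2.75 ± 0.47, limma adjusted p = 0.0716, DESeq2 adjusted p = 0.0162). In the other 6 EGFR groups the mean Iapp level was 0.132 to 2.20 RPM, but single libraries overlapped with R222C, since those of wild-type EGFR reached 3.85 RPM.

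Neu4, a sialidase that in the brain is found in oligodendrocyte precursors, was at 41.5, 21.5 and 26.8 RPM in the R222C tumours and 6.44, 1.59 and 4.26 RPM in the mCherry tumours. Its lowest R222C value was over the highest mCherry value, and the log2 difference was 2.68 ± 0.49 (SE; limma adjusted p = 0.0828, DESeq2 adjusted p = 0.000248). Neu4 was not particular to R222C, since its mean was 29.9 RPM there and 21.7 (wild type) to 105 RPM (R108G) in the other EGFR groups. Only the wild-type mean was below that of R222C. Normal cortex had 15.3 and 15.4 RPM of Neu4, more than any mCherry tumour. Cyp2j9, a cytochrome P450 of the family that oxidises arachidonic acid, was at 146, 122 and 146 RPM in the R222C tumours and 22.6, 47.4 and 40.4 RPM in the mCherry tumours. The R222C tumours lay close together and above all mCherry tumours (log2 difference 1.94 ± 0.38, limma adjusted p = 0.13). Aldoc, the aldolase of astrocytes and other brain cells, was at 739.6, 769 and 773 RPM in the R222C tumours and 328, 186 and 243 RPM in the mCherry tumours. That made a log2 difference of 1.63 ± 0.34 (limma adjusted p = 0.203), with a smaller spread in R222C than in mCherry. Normal cortex had 1169.5 and 1252 RPM of Aldoc, more than either tumour group. Aldoc was not particular to R222C, since its mean was 760 RPM there and 297 (wild type) to 720 RPM (A289V) in the other EGFR groups.

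Neu4, Cyp2j9 and Aldoc were also the only genes that DESeq2 called in all 6 fits that left out 1 library of the 2 groups, so their promoters are shown, each running from 250 bases before to 50 bases after a gene start (RefSeq, GRCm38.p6, 5′ to 3′ on the gene's strand). Capitals mark ACAAAG or ACAATG on either strand, the core that SOX factors of the glial lineage bind. Aldoc has 2 promoters in the table, and the upstream one is given.
Neu4, chr1:94020243-94020542, plus strand: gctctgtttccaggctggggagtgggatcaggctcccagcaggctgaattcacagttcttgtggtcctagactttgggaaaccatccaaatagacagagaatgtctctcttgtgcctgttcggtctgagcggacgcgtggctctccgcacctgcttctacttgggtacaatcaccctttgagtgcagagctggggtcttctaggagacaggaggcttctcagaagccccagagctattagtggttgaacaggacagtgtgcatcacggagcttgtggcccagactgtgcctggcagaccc
Cyp2j9, chr4:96591436-96591735, minus strand: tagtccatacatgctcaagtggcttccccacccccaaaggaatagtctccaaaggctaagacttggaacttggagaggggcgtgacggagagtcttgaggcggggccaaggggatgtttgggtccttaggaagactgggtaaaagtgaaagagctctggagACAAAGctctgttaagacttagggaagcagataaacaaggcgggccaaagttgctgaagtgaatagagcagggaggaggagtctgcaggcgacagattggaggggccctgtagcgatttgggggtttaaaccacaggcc
Aldoc, chr11:78322823-78323122, plus strand: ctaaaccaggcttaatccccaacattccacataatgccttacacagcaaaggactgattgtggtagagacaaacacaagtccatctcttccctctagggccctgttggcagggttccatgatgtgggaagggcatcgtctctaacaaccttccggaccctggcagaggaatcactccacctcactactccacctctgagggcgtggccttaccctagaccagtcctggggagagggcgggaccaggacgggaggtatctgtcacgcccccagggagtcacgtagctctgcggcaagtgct
The Cyp2j9 promoter held 1 match, in its written strand, and the other two held 0. Of all promoters of this length in the table, 28.6% held at least 1 match.

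The other higher-ranked genes were Fam117a, whose function is little known, Mfi2, which encodes the iron-binding melanotransferrin, Afap1l2, an adaptor of SRC kinase and PI3K signalling, and Unc5c, a receptor for the guidance cue netrin. Fam117a was at 16.2, 22.9 and 15.1 RPM in the R222C tumours and 6.68, 7.57 and 4.47 RPM in the mCherry tumours. Mfi2 was at 11.3, 8.65 and 3.79 RPM in the R222C tumours and 1.34, 0.549 and 0.894 RPM in the mCherry tumours. All of these values separated the groups, as the rule required. Afap1l2 was at 173, 248 and 217 RPM in the R222C tumours and 56.6, 90.1 and 63.3 RPM in the mCherry tumours, a log2 difference of 1.60 ± 0.36 (limma adjusted p = 0.254). Unc5c was at 106, 98.6 and 89.1 RPM in the R222C tumours and 29.3, 35.9 and 15.1 RPM in the mCherry tumours, a log2 difference of 1.92 ± 0.44 (limma adjusted p = 0.254). Dcc, the other main netrin receptor, was among the genes that DESeq2 called lower and was chosen after its values were seen, with 9.65, 5.08 and 5.55 RPM in the R222C tumours and 20.9, 31.1 and 40.6 RPM in the mCherry tumours (DESeq2 adjusted p = 0.0386, limma adjusted p = 0.336).

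Of the 8 lower-ranked genes, Ip6k2, Zfp609, Elovl4 and Zfp445 lie on chromosome 9. The 8 were chosen for low values in these same libraries, so their place is not a result separate from the chromosome's level. The genes of chromosome 9 as a whole were at a median of -0.22, -0.39 and -0.28 from the tumour median, in log2 units, in R222C libraries 1, 2 and 3 and at -0.02, 0.11 and 0.02 in mCherry. Chromosome 18, which holds Rprd1a and Dcc, was at -0.36, -0.38 and -0.46 in R222C and -0.16, 0.31 and 0.13 in mCherry. Both chromosomes were thus low in all R222C tumours. Chromosome 14, which holds Ttc5, was at -0.33, -0.39 and 0.04 in R222C and 0.19, 0.17 and 0.05 in mCherry. Garem had no position under the symbol used here, so its chromosome was not looked at. The part of these chromosome levels in the named genes was not tested. Ip6k2, a kinase of inositol hexakisphosphate, was at 38.6, 30.7 and 30.3 RPM in the R222C tumours and 63.7, 59.8 and 71.4 RPM in the mCherry tumours (log2 difference -0.95 ± 0.21, limma adjusted p = 0.205). Ttc5, a cofactor of p53 and of tubulin autoregulation, was at 23.6, 18.8 and 18 RPM in the R222C tumours and 46.1, 42.9 and 38.6 RPM in the mCherry tumours (log2 difference -1.05 ± 0.23, limma adjusted p = 0.217). R222C libraries 2 and 3 were the lowest 2 of the 28 tumours in both genes. Chd3, a chromatin remodeller of the NuRD complex, was at 74.3, 71.4 and 122 RPM in the R222C tumours and 309.6, 175 and 204 RPM in the mCherry tumours. Elovl4, which elongates very long-chain fatty acids, was at 21.9, 14.8 and 14.1 RPM in the R222C tumours and 38.5, 32.5 and 39.8 RPM in the mCherry tumours. Neither reached the lowest mCherry value in any R222C tumour, and normal cortex had more of both, 506 and 598 RPM of Chd3 and 68.5 and 78.9 RPM of Elovl4. The zinc finger genes Zfp609 and Zfp445, Rprd1a, a regulator of RNA polymerase II, and Garem, an adaptor of the EGFR to ERK pathway, completed the list, with log2 differences of -0.90, -0.86, -1.26 and -1.63. Garem was at 2.41, 4.30 and 3.42 RPM in the R222C tumours and 14.6, 16.8 and 7.49 RPM in the mCherry tumours.

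**Figure D2:**
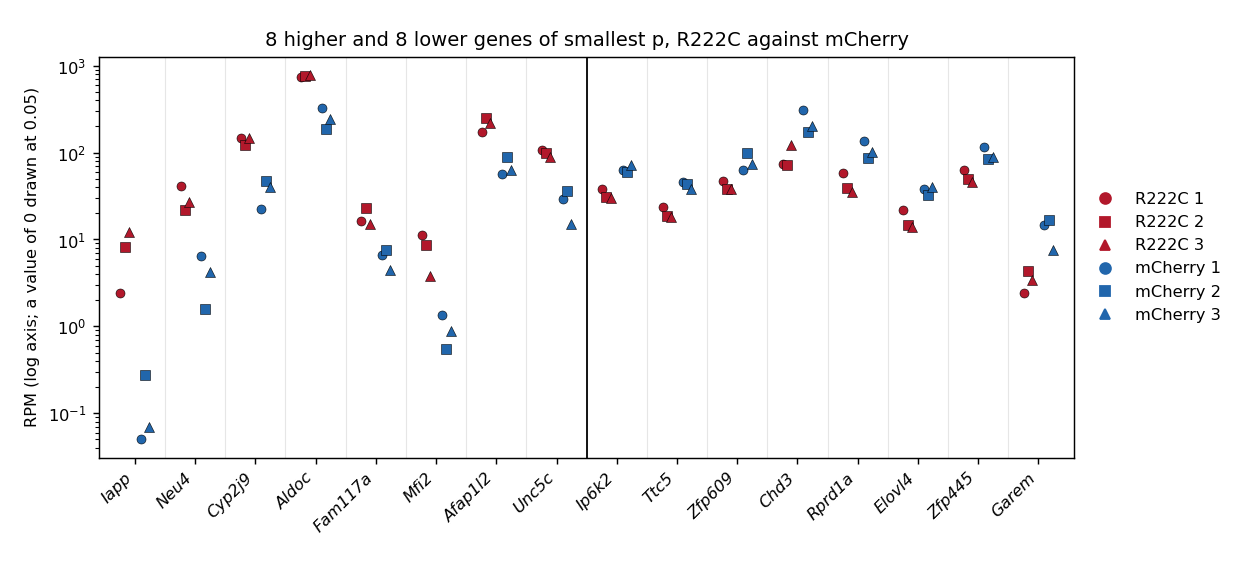
RPM on a log axis of the 8 higher and 8 lower genes of smallest p, 1 point per library, R222C in red and mCherry in blue, left and right of the black line. The groups do not overlap in any of the 16 genes because the rule asked for that, and the R222C libraries lie close together in Cyp2j9 and Aldoc.

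Of the 95 genes called by DESeq2, 81 had groups that did not overlap, 51 higher and 30 lower in R222C. The count rested in part on single libraries, since DESeq2 called 20 genes without R222C library 2, 50 without R222C library 3 and 54 without mCherry library 3. Within the 95, single libraries carried part of the signal: in 11 of the 59 higher genes 1 R222C library held over 80% of the group's sum, and in 7 of the 36 lower genes 1 mCherry library did. When 3 ranges of library numbers were fitted as well, DESeq2 called 3 genes, Csn3, Alcam and 2010204K13Rik, the first as higher and the others as lower. Csn3 was at 0, 0.167 and 0.647 RPM in the R222C tumours and 0, 31.7 and 0 RPM in the mCherry tumours, so its direction in that fit was opposite to that of its measured levels. Of the lists of glial and lipid genes, DESeq2 called 1 of 18 oligodendrocyte precursor genes, 0 of 18 myelin genes, 1 of 14 fatty acid genes and 0 of 19 cholesterol genes. Beside these stood 0.602% of all genes, and lists this short cannot show a share of that size. Gjc3, Pllp and Acacb were among the 95 without being on a list, and were chosen after their values were seen. Gjc3, a connexin of oligodendrocytes and glial precursors, was at 787, 1322 and 439 RPM in the R222C tumours and 187, 159.6 and 192 RPM in the mCherry tumours (log2 difference 2.10 ± 0.53, DESeq2 adjusted p = 0.0117, limma adjusted p = 0.294). Pllp, the myelin protein plasmolipin, was at 237, 253 and 211 RPM in the R222C tumours and 82.3, 33.2 and 34.6 RPM in the mCherry tumours (log2 difference 2.33 ± 0.56, DESeq2 adjusted p = 0.0251, limma adjusted p = 0.254). Both had all R222C tumours above all mCherry tumours. Acacb, an acetyl-CoA carboxylase that controls fatty acid oxidation, was at 24.4, 20.9 and 17.4 RPM in the R222C tumours and 2.55, 1.21 and 3.30 RPM in the mCherry tumours (DESeq2 adjusted p = 0.0112, limma adjusted p = 0.306). Over the other 22 tumours of the series the median was 404 RPM for Gjc3, 282 RPM for Pllp and 19.8 RPM for Acacb. That median was below every R222C tumour for Gjc3, above every R222C tumour for Pllp and within the R222C range for Acacb.

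Lists of glial markers leaned towards R222C without a call in limma. Oligodendrocyte precursor genes had a higher mean in R222C in 14 of 18, with a median log2 difference of 0.51, and 4 of the 18 (Neu4, Cspg4, Lhfpl3 and Matn4) were higher without overlap, beside 5.49% of all genes. Cspg4, the NG2 proteoglycan of these precursors, was at 187, 449 and 369.7 RPM in the R222C tumours and 90.2, 88.8 and 109 RPM in the mCherry tumours (log2 difference 1.71 ± 0.55, limma adjusted p = 0.465). Genes of myelinating oligodendrocytes had 14 of 18 higher and a median of 0.57. Cldn11, a tight junction protein of myelin, was at 780.3, 385 and 259 RPM in the R222C tumours and 196, 208 and 368 RPM in the mCherry tumours, with R222C library 1 the highest. Without mCherry library 2 both medians came down, to 0.15 and 0.00.

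Astrocyte genes had 13 of 18 higher and a median of 0.34, and without mCherry library 2 the median was -0.22. S100b, a calcium-binding protein of astrocytes and oligodendrocyte precursors, was at 438, 377 and 308.5 RPM in the R222C tumours and 219.8, 74.5 and 75.5 RPM in the mCherry tumours, without overlap (log2 difference 1.78 ± 0.55, limma adjusted p = 0.439). Sox9, an astrocyte and progenitor factor that also counts among the stem cell genes, was at 30.4, 7.03 and 28.4 RPM in the R222C tumours and 39.4, 32.8 and 41.9 RPM in the mCherry tumours, and here every mCherry tumour was above every R222C tumour. Prom1, the stem cell surface gene for CD133, was at 24.1, 7.92 and 8.88 RPM in the R222C tumours and 26.7, 31.9 and 26.9 RPM in the mCherry tumours, with the same order. The stem cell and glial fate list as a whole had 10 of 19 higher and a median of 0.15.

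Neuron genes had a lower mean in R222C in all 24 of 24, with a median log2 difference of -0.92, and 6 of the 24 did not overlap, beside 6.69% of all genes. Nefm and Nefl, the medium and light neurofilament subunits, were the members of smallest p. Both lie in the same place on chromosome 14, whose level in these tumours is given above, and its part in them was not tested. Nefm was at 8.20, 5.69 and 6.01 RPM in the R222C tumours and 42.3, 21.8 and 17 RPM in the mCherry tumours (log2 difference -1.79 ± 0.77, limma adjusted p = 0.654). Nefl was at 9.16, 8.98 and 6.75 RPM in the R222C tumours and 71.2, 14.4 and 19.4 RPM in the mCherry tumours (log2 difference -1.62 ± 0.75, limma adjusted p = 0.689). mCherry library 1 was the highest of the 6 for 22 of the 24 genes, and without it the median was -0.35 and 4 of 24 means were higher in R222C. The neuron list summed to 1553, 1491 and 1166 RPM in R222C, 5272, 1652 and 1924 RPM in mCherry and 22543 and 23067 RPM in normal cortex. The list of AMPA and NMDA receptor subunits had 4 of 11 higher (median -0.58). Within it Gria2 was at 80.5, 22.7 and 68.1 RPM in the R222C tumours and 175, 98.3 and 64.6 RPM in the mCherry tumours, while Gria3 was at 147, 104 and 105 RPM in the R222C tumours and 86, 70.8 and 59.4 RPM in the mCherry tumours, so Gria3 was higher in every R222C tumour. The part of neuron content in these differences was not tested.

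**Figure D3:**
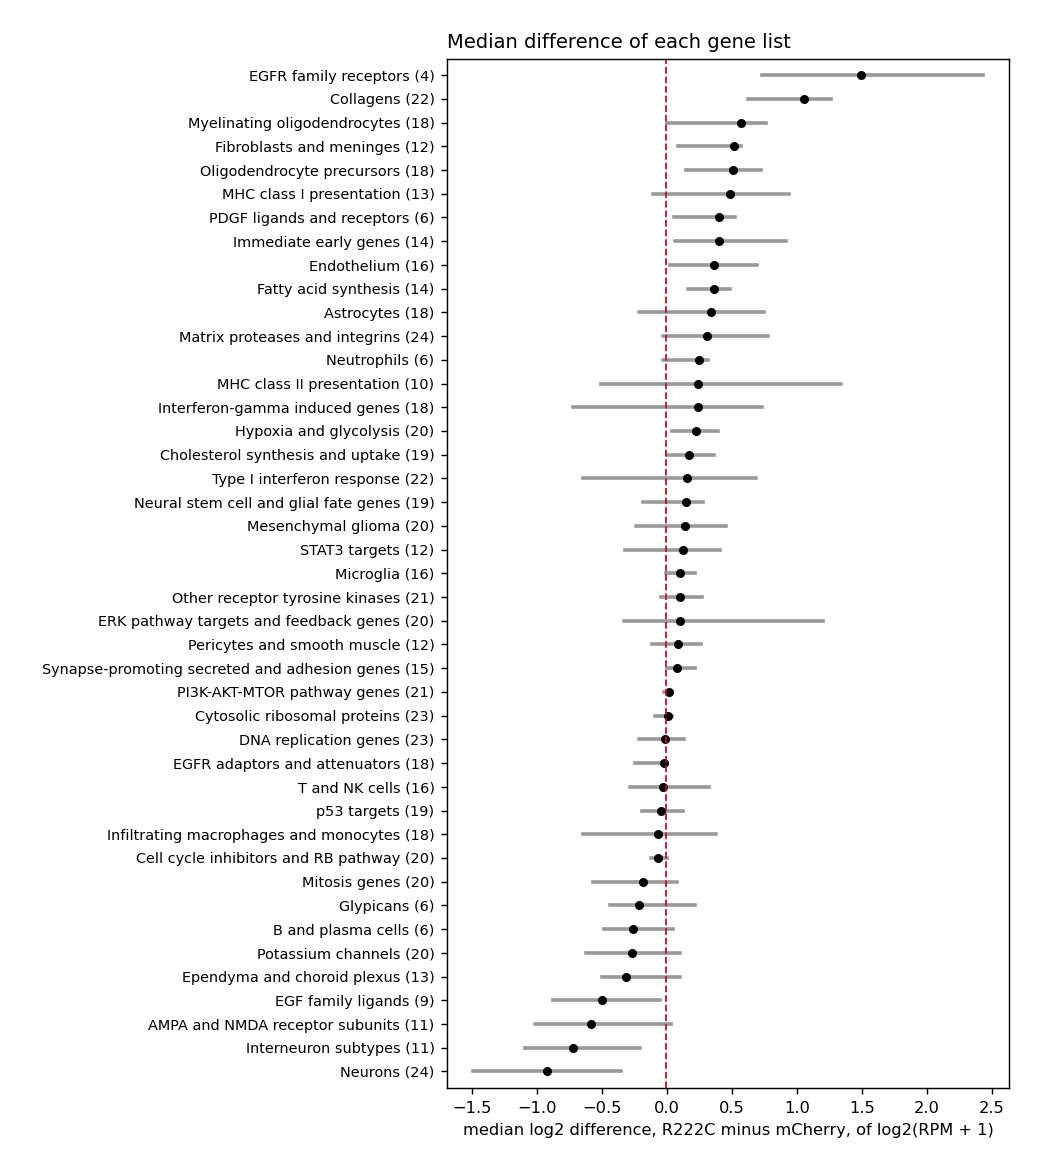
Median log2 difference of log2(RPM + 1), R222C minus mCherry, for 43 gene lists with the number of genes tested in brackets. Grey bars give the range of the median when 1 of the 6 libraries is left out, and the dashed line is the median of all genes. The collagen list stays above 0 and the neuron list below 0 in every such fit, while the interferon, MHC class II and ERK lists reach both sides.

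Collagens had the largest median of the lists with more than 4 genes, 1.05, with 17 of 22 means higher, 4 members without overlap higher (5.49% of all genes) and 3 lower (6.69%). The list's summed level was 1665, 7160.0 and 1973 RPM in R222C and 769, 1894 and 1268 RPM in mCherry, so R222C library 2 was far above the others. Col4a2, a chain of the type IV collagen of vessel walls, was at 119, 333 and 169 RPM in the R222C tumours and 19.6, 78.3 and 119 RPM in the mCherry tumours (log2 difference 1.71 ± 0.67, limma adjusted p = 0.597). Its R222C library 1 was barely above mCherry library 3. Col9a3, a chain of the type IX collagen of cartilage, was at 57.6, 385 and 101 RPM in the R222C tumours and 21.3, 17.4 and 16.6 RPM in the mCherry tumours (log2 difference 2.78 ± 0.64, limma adjusted p = 0.254, DESeq2 adjusted p = 0.00087). Without R222C library 2 the list's median was 0.62, with 17 of 22 means higher.

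Other genes of cartilage-type matrix, chosen after their values were seen, shared that library. Acan, the proteoglycan aggrecan, was at 48.2, 539.5 and 85.2 RPM in the R222C tumours and 1.70, 3.07 and 7.36 RPM in the mCherry tumours (DESeq2 adjusted p = 0.0129, limma adjusted p = 0.41). Col11a2, a chain of type XI collagen, was at 129, 894 and 184 RPM in the R222C tumours and 18, 5.32 and 26.8 RPM in the mCherry tumours (DESeq2 adjusted p = 0.00154, limma adjusted p = 0.306). Mgp, matrix Gla protein, an inhibitor of calcification that fibroblasts also make, was at 107, 2201 and 47.8 RPM in the R222C tumours and 16.2, 17.9 and 12.6 RPM in the mCherry tumours (DESeq2 adjusted p = 0.000248, limma adjusted p = 0.339). In all of these the groups did not overlap, and R222C library 2 was the highest of the 28 tumours. Col11a1, the other XI chain, was at 199, 2365 and 119.7 RPM in the R222C tumours and 39, 169 and 94.1 RPM in the mCherry tumours, where the groups overlapped. The fibroblast and meninges markers summed to 809.5, 3404 and 859 RPM in R222C and 887, 364 and 759.6 RPM in mCherry, Mgp included, with R222C library 2 again the highest, and their part in the matrix genes was not tested.

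High and low levels of immune genes fell on single tumours of either group. The type I interferon response genes averaged 5.63, 5.93 and 8.36 on the log2(RPM + 1) scale in R222C libraries 1, 2 and 3 and 5.75, 6.77 and 6.87 in mCherry, and R222C library 3 was the highest of the 6 for 20 of 22. Ifit3, an interferon-induced antiviral gene, was at 86.8, 170.0 and 685 RPM in the R222C tumours and 64, 176 and 144 RPM in the mCherry tumours. Without R222C library 3 the list's median log2 difference was -0.65, and with it 0.15.

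The same tumour had little of the MHC class II genes, with which antigen-presenting cells show peptides to T cells. The list averaged 6.58, 7.22 and 3.85 in R222C and 4.06, 5.67 and 7.06 in mCherry. H2-Eb1, the beta chain of the I-E molecule, was at 393, 333 and 8.23 RPM in the R222C tumours and 1.46, 181 and 291 RPM in the mCherry tumours, so R222C library 3 and mCherry library 1 were low and the other four tumours high. Of 16 T and NK cell genes, R222C library 3 was the lowest of the 6 for 11, whereas MHC class I genes were not low there, summing to 10034, 12609.5 and 10108 RPM in R222C and 3649, 10083 and 11114 RPM in mCherry. MHC class I genes had 13 of 13 means higher in R222C (median 0.48), but mCherry library 1 was the lowest of the 6 for all 13, and without it the median was -0.11. Microglia genes had 9 of 16 higher (median 0.10) and genes of infiltrating macrophages and monocytes 5 of 18 (median -0.07).

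**Figure D4:**
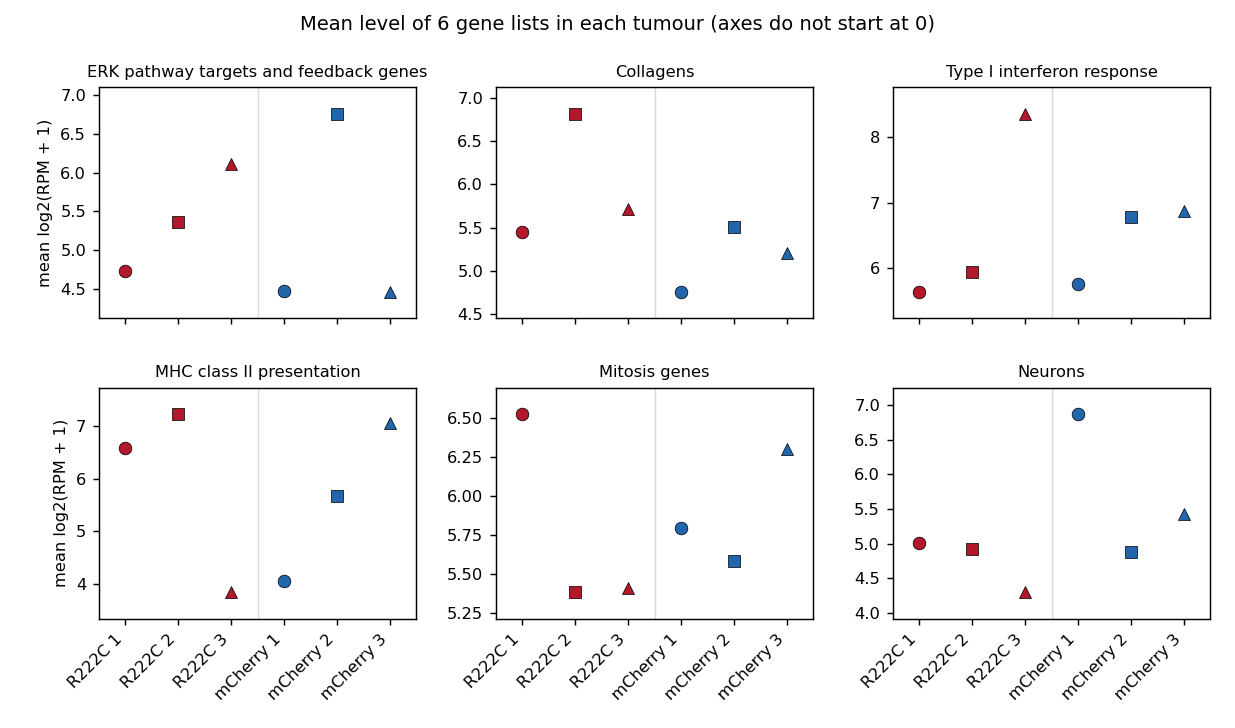
Mean log2(RPM + 1) over the genes of 6 lists in each tumour, R222C in red and mCherry in blue, on axes that do not start at 0. R222C library 3 has the highest interferon and the lowest MHC class II level, R222C library 2 the highest collagen level, R222C library 1 the highest mitosis level, mCherry library 2 the highest ERK target level and mCherry library 1 the highest neuron level.

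Fatty acid synthesis genes had a higher mean in R222C in 12 of 14, with a median of 0.36 and 3 members without overlap, beside 5.49% of all genes. Srebf1, the transcription factor that switches on these enzymes, was at 376, 678 and 321 RPM in the R222C tumours and 99.6, 159 and 150.1 RPM in the mCherry tumours (log2 difference 1.69 ± 0.44, limma adjusted p = 0.306, DESeq2 adjusted p = 0.0289). The lowest R222C value was above the highest mCherry value. Scd1, the desaturase that makes oleic acid, was at 158, 226 and 273 RPM in the R222C tumours and 121, 126 and 44.1 RPM in the mCherry tumours, without overlap (log2 difference 1.28 ± 0.41, limma adjusted p = 0.46). Cholesterol synthesis and uptake genes had 16 of 19 higher, but the median was 0.17. Srebf2, their main transcription factor, was at 249, 169.6 and 323 RPM in the R222C tumours and 169.6, 148 and 145 RPM in the mCherry tumours, where the lowest R222C and the highest mCherry value nearly met. Dhcr7, which makes the last step of the pathway, was at 78.4, 62.8 and 67.3 RPM in the R222C tumours and 38.3, 54.7 and 48.5 RPM in the mCherry tumours, without overlap. Without R222C library 1 only 9 of 19 cholesterol genes had a higher mean.

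None of the proliferation genes passed in limma. Mitosis genes had 6 of 20 higher and a median of -0.19, and R222C library 1 was the highest R222C tumour for all 20. Cenpf, a kinetochore protein, was at 113, 56.6 and 51.9 RPM in the R222C tumours and 51.5, 46.2 and 50.9 RPM in the mCherry tumours. Bub1, a checkpoint kinase, was at 31.8, 15.3 and 21 RPM in the R222C tumours and 29.9, 24.7 and 39.6 RPM in the mCherry tumours. R222C library 1 was far above the others in Cenpf, where the groups just failed to overlap, and the groups overlapped in Bub1. DNA replication genes had 10 of 23 higher (median -0.02), and p53 targets 8 of 19 (median -0.04). Ccnd3, a D-type cyclin, was at 229, 201 and 267 RPM in the R222C tumours and 158, 110.4 and 148 RPM in the mCherry tumours, higher in every R222C tumour (limma adjusted p = 0.799).

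Among the remaining lists, endothelial genes had 13 of 16 higher (median 0.36). Vwf, the von Willebrand factor of vessel walls, was at 61.5, 27.8 and 32.4 RPM in the R222C tumours and 9.48, 26.8 and 34.3 RPM in the mCherry tumours, and mCherry library 1 was the lowest of the 6 for 13 of 16 endothelial genes. Hypoxia and glycolysis genes had 15 of 20 higher (median 0.23), with Vegfa, the vessel growth factor, at 136, 66.7 and 209 RPM in the R222C tumours and 34.1, 55.2 and 113 RPM in the mCherry tumours. Immediate early genes had 9 of 14 higher (median 0.40). Of these Nr4a1, a nuclear receptor induced by growth factors and activity, was at 137, 319.7 and 219.8 RPM in the R222C tumours and 69.6, 48.6 and 46.1 RPM in the mCherry tumours, without overlap (log2 difference 1.96 ± 0.60, limma adjusted p = 0.41, DESeq2 adjusted p = 0.054). Potassium channels had 7 of 20 higher (median -0.27), with Kcnj16, an inward rectifier of glia, at 52.8, 21.4 and 83.4 RPM in the R222C tumours and 23.8, 8.67 and 20.8 RPM in the mCherry tumours. The cytosolic ribosomal proteins had 12 of 23 higher and a median of 0.01.

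To see where R222C differed from the receptor without the change and from another variant, the R222C libraries were compared with the 3 wild-type EGFR libraries and with the 3 libraries of the variant T263P. The comparisons share the R222C libraries with each other and with the one against mCherry. The wild-type libraries carry the numbers 1, 2 and 23, and only the last lies in the range from 20 to 37 that holds the R222C libraries. Rn45s took 0.168%, 0.165% and 3.64% of their reads. The change of receptor thus cannot be fully told apart from whatever the numbers stand for. Against wild-type EGFR limma called 0 genes (0.0%), with 796 at an unadjusted p under 0.05 (5.03%), edgeR called 0 (0.0%, with 939 unadjusted) and DESeq2 31 (0.196%). Cyth3, an exchange factor for ARF proteins, was at 49.2, 77.7 and 73 RPM in R222C and 30.4, 25.8 and 30.2 RPM with the wild-type receptor, without overlap. Its log2 difference was 1.16 ± 0.25 (SE; limma adjusted p = 0.615). Colgalt2, which glycosylates collagen, was at 11.1, 41.5 and 17.1 RPM in R222C and 5.29, 5.87 and 3.59 RPM with the wild-type receptor. Megf9, a transmembrane protein of neurons and glia, was at 52.3, 116 and 352 RPM against 39.6, 43.7 and 32.1 RPM, with R222C library 3 the highest. Exog, a mitochondrial nuclease, was lower, at 16.9, 14.3 and 12.3 RPM against 27.8, 31.9 and 29.3 RPM. Cdv3 was at 118, 62.2 and 93.4 RPM against 134, 264 and 238 RPM, and Hebp2, a heme-binding protein, at 4.58, 0.781 and 3.51 RPM against 8.66, 11.7 and 8.89 RPM, both lower without overlap.

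Against T263P, whose library numbers lie in the same range as those of R222C, limma called 0 genes (0.0%), with 788 at an unadjusted p under 0.05 (4.98%), edgeR called 0 (0.0%, with 970 unadjusted) and DESeq2 18 (0.114%). Ptx3, a pentraxin of innate immunity, was at 20.3, 11.3 and 25.5 RPM in R222C and 1.55, 2.39 and 3.82 RPM in T263P, without overlap. That was a log2 difference of 2.46 ± 0.49 (SE; limma adjusted p = 0.302, DESeq2 adjusted p = 0.000694). Iapp was at 0.186, 0.266 and 1.05 RPM in T263P, and Mfi2 at 0.682, 0.93 and 1.05 RPM, in each case below every R222C tumour. Sos1, the exchange factor that loads RAS with GTP behind EGFR, was at 46.3, 39.6 and 35.1 RPM in R222C and 229, 73.1 and 55.4 RPM in T263P, where 1 library was well above the other two. Rabgap1l, a GTPase-activating protein of the RAB family, was at 25.1, 25.1 and 22.9 RPM in R222C and 363, 57.5 and 43.5 RPM in T263P, with the same T263P library the highest. Ttc5 was at 30.9, 36.9 and 50.4 RPM in T263P, above every R222C tumour. Neu4 was at 41.7 to 92.2 RPM in T263P, above every R222C tumour, and at 8.42 to 37.3 RPM with the wild-type receptor, where it overlapped with R222C.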

How the data were processed

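Gene read counts divided by 1 size factor per library were deposited by the authors as a normalised signal (expressed in tables named RPM), per the values in the tables: all but 1 value came to whole reads within 0.05 of a read. Per the submitters' processing notes FastQC, STAR 2.5.0a, mm10 and DESeq2 1.20.0 were used, without their roles, and the annotation and the counter are not given in the sources used here. Dividing by 10.2638 brought the values to about RPM, which the test design had assumed. Library sizes across the series were 2784129 to 24475215 reads.

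limma 3.58.1 in R 4.3.3 fitted log2(RPM + 1) with 9 group means over all 30 libraries, which share 1 estimate of the spread (eBayes with trend and robust, two-sided). P-values were adjusted by the Benjamini-Hochberg method over 15824 genes (threshold 0.05). Nothing in the labels says that the libraries of a group came from separate mice beyond the design text, so p-values measure the spread between these samples. Recovered reads were tested with edgeR 4.0.16 and DESeq2 1.42.0. On simulated data for R222C against mCherry (200 of 15824 genes changed) limma recovered 48.4% of 3-fold and 96.3% of 8-fold changes, with 7 false calls of 155. The simulation gave every gene the same fixed spread and no tumour that stood apart, so these shares need not hold for the real tumours. Egfr, with a log2 difference of 3.85 ± 1.09 (SE), was not called by limma, so the absence of calls does not exclude large changes.

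The members, the gene lists and the tests were chosen with earlier results of these data known. The rule for names took Egfr, per direction up to 12 passing genes (none passed, so the 8 of smallest p without overlap and with a mean of 5 RPM in 1 group), any of the receptors, ligands, adaptors and ERK targets, up to 2 members of each other list, and 3 genes of each direction in the other 2 comparisons, and not every gene it allowed is named. Predicted loci, Rn45s, Xist and Y-linked genes were passed over. Promoters came from RefSeq and positions from GENCODE M21 on mm10. Figures used Python 3.11.15 and matplotlib 3.10.9.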

Additional observations from a re-analysis of the deposited data

How the results depend on the processing

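No paired analysis was possible because the labels give library numbers and no replicate numbers shared by the groups. In R222C against mCherry, limma called 0 genes without the filter, with one of 5 RPM, with a pseudocount of 0.1 RPM, after TMM scaling and with terms for 2 or 3 number ranges. It called 3 with library weights (Neu4, Cyp2j9 and Aldoc), 1 with only the 2 groups (Rn45s) and 8 without the 3 libraries with Met above 1000 RPM (4 higher, 4 lower). Leaving out each library gave 0 to 3 calls: Kank4os without mCherry library 2, and Iapp, Enpp1 and Megf9 without R222C library 1. DESeq2 called 95 genes. Its fits without 1 library, added after the data were seen, called 20 (without R222C library 2) to 110 (without R222C library 1), among them 83, 82 and 54 without mCherry libraries 1, 2 and 3 and 50 without R222C library 3, and its fit with the 3 ranges, also added, called 3.

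Against wild-type EGFR, DESeq2 called 31, limma without the high-Met libraries 32 (8 higher, 24 lower), which left 1 wild-type library, assumed to vary like the other groups, and leaving out each library gave 0 to 2 (Capza2 and Tbx20 without wild-type library 3, Megf9 without R222C library 1). Against T263P, DESeq2 called 18, and leaving out each library gave 0 to 2 (Iapp and Megf9 without R222C library 1, Rec8 without T263P library 2, Ipw and Vax1 without T263P library 3). The cause of these shifts was not tested beyond the libraries named.

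The sign of the log2 difference turned for few of the genes named. For Dusp6 (0.24) it was -0.43 with 2 ranges, -0.76 in edgeR, -0.75 in DESeq2 and -0.43 to 1.57 with 1 library left out. For Spry4 (0.17) these were -0.49, -0.96, -0.96 and -0.69 to 1.69. For Met (-1.69) it was 0.29 with weights, 1.65 with 3 ranges, 1.43 without the high-Met libraries and -3.72 to 1.43 with 1 left out. Csn3 (-1.36) came to 0.31 without the high-Met libraries and -2.20 to 0.31 with 1 left out. With 1 left out H2-Eb1 ranged over -1.11 to 2.84 and Enpp3 over -1.09 to 2.72. Depth limits the low genes: 3 reads, the most that a count of 0 allows, were 0.723 RPM in R222C library 1 and 0.165 RPM in mCherry library 2, counting error only.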

Other observations

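Single tumours of these groups held very high levels of genes that were low elsewhere, given here as values chosen after they were seen. Pex11g, a peroxisome division factor, was at 171, 5.25 and 2.13 RPM in the R222C tumours and 1.09, 2.74 and 2.13 RPM in the mCherry tumours. R222C library 1 thus stood alone, since the other 22 tumours of the series had 0.767 to 9.43 RPM. Enpp3, an ectonucleotidase, was at 6.27, 0.614 and 318 RPM in the R222C tumours and 6.80, 4.50 and 8.04 RPM in the mCherry tumours, with 0.992 to 5.98 RPM in the other 22. Wnt16, a WNT ligand, was at 0.241, 0.391 and 0.0925 RPM in the R222C tumours and 0.608, 55.6 and 0.206 RPM in the mCherry tumours, and here mCherry library 2 was the high one. DESeq2 called all 3 genes (adjusted p = 0.000248, 0.0119 and 0.0143), and limma called none of them (adjusted p = 0.544, 0.913 and 0.671).

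On chromosome 4 genes around Tlr4, the receptor for bacterial lipopolysaccharide, were compared with their median over the tumours. No rule set this stretch, and it holds Megf9, named above for its high level in R222C library 3, so the values are given only as a description. Of 13 neighbouring genes whose tumour mean reached 10 RPM, all 13 were above the tumour median in R222C library 3, with a median of 1.03 on the log2 scale, against 0.01 in R222C library 1 and 0.23 in library 2. Megf9, a transmembrane protein of neurons and glia, was at 52.3, 116 and 352 RPM in R222C libraries 1, 2 and 3. Brinp1, a neural cell cycle inhibitor near it, was at 29.4, 20.6 and 305.6 RPM, and Tnc, the matrix protein tenascin C, at 109, 37.8 and 462 RPM. Astn2, in the same stretch, was highest in library 2, at 74.3, 126 and 102 RPM. mCherry library 3 was above the tumour median there too, with a median of 0.48 from 60 to 70 Mb, against 0.56 in R222C library 3, and of 0.61 from 70 to 80 Mb, against 1.03. Over all of chromosome 4 the median was 0.35 in R222C library 3 and 0.47 in mCherry library 3. Of its 673 genes that reached 10 RPM, 82.8% and 84.0% lay above the tumour median in these 2 libraries. From 40 to 50 Mb it was 88 of 96 genes in R222C library 3 and 83 in mCherry library 3. High values in R222C library 3 were thus not limited to the stretch around Tlr4.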
